A study of Canis lupus familiaris with 6 samples.

Results

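AQP3 and SMOC2 are 2 of the 34981 genes listed for every library of a single-cell RNA sequencing study of dog retina, and both were chosen because their counts were higher over a graft. They were taken by symbol from the gene lists of all 6 libraries. For each, the level in every marker-named cell class was read in the punch over the graft and in the control punch. Human retinal organoids grown from the embryonic stem cell line WA09, which carries a CRX-tdTomato reporter, were triturated and placed under the retina of immunosuppressed dogs with normal, wild-type retinas. On day 3, a 5 mm punch of neuroretina over the graft and another from a graft-free area were taken in each of 3 experiments, called LG5, RC726 and RC724. All 6 punches come from immunosuppressed, grafted dogs, so the control is graft-free tissue and not an untreated animal. The dogs' ages, sexes and breeds were not given in the sources used here.

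AQP3 encodes an aquaglyceroporin, a membrane channel that passes water, glycerol and hydrogen peroxide. It is best known from the basolateral membranes of skin, kidney collecting duct and other epithelia, whereas AQP4 is the classical water channel of Müller glia, the radial support cells of the retina, and is 1 of the markers used here to name them. SMOC2 encodes a secreted modular calcium-binding protein of the SPARC family, a group of matricellular proteins that bind matrix and modulate growth factor signals rather than build the matrix itself; its closest relative is SMOC1, a modulator of BMP signalling. In the RefSeq gene order of the assembly UU_Cfam_GSD_1.0, AQP3 lies between AQP7 and NOL6, and SMOC2 lies between DACT2 and THBS2.

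The libraries held 8778 to 23908 deposited barcodes and 34768162 to 60755006 UMIs, that is, unique molecular identifiers, each standing for 1 captured transcript. After filters on genes detected, mitochondrial share and doublet score, 8039 to 22427 barcodes a library remained, and 59 clusters were made without either gene among the clustering genes. Of these clusters, 42 were named by marker genes, and a class such as "rod-like" means a cluster with that marker profile. The pairs of libraries shared 17 to 102 barcode sequences. CPM below scales the UMIs of a gene to all UMIs of its class in that library, and a positive barcode has at least 1 UMI of the gene. Because the genes were selected on the difference between the punches, that difference is described here with no test. Intervals are 95% Wilson intervals and, like limits from a count of 0, cover counting error only.

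AQP3 was higher over the graft in rod-like and cone-like barcodes of all 3 experiments, and the photoreceptors held most of its UMIs there. In rod-like barcodes the level went from 2.18 CPM in the LG5 control punch to 180.5 CPM over the graft, from 2.26 to 16.3 CPM in RC726 and from 0.581 to 39.5 CPM in RC724. These values rest on 17, 31 and 5 UMIs in control and on 1231, 261 and 522 UMIs over the graft. The lowest level over the graft lay above the highest control level, and LG5 and RC724 stood well above RC726. The ratios were 82.9-fold in LG5, 7.19-fold in RC726 and 67.9-fold in RC724. On the log2(CPM + 1) scale the mean difference was 4.31 ± 1.75 (SD, n = 3 experiments).

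In cone-like barcodes AQP3 went from 4.296 to 139.9 CPM in LG5, from 0.853 to 6.04 CPM in RC726 and from 1.62 to 33.9 CPM in RC724. The order of the experiments was that seen in rod-like barcodes, and the groups did not overlap. The UMIs behind these levels were 11, 3 and 5 in control and 306, 21 and 93 over the graft. The mean log2(CPM + 1) difference was 3.46 ± 1.42 (SD, n = 3 experiments). Over the graft, the cone-like level divided by the rod-like level was 0.775 (LG5), 0.371 (RC726) and 0.859 (experiment RC724). In CPM, AQP3 was thus lower in cone-like than in rod-like barcodes of each library over the graft. The share of positive barcodes, given below, was higher in cone-like barcodes, which were also deeper. The control punches did not share the order seen in CPM. There the cones stood above the rods for LG5 (4.296 against 2.18 CPM) and RC724 (1.62 against 0.581 CPM). For RC726 they stood below (0.853 against 2.26 CPM), and all of these control levels rest on few UMIs.

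SMOC2 was also higher in photoreceptors over the graft, with its highest levels in cone-like barcodes. Their level went from 0.781 to 153 CPM in LG5, from 2.56 to 33.4 CPM in RC726 and from 0.325 to 82.8 CPM in RC724. Control cones held 2, 9 and 1 UMIs, and cones over the graft 335, 116 and 227 UMIs. A single barcode held 7 of the 9 UMIs in the RC726 control. The groups did not overlap, and the lowest level over the graft was 13.0 times the highest control level, both from RC726. The mean log2(CPM + 1) difference was 5.23 ± 1.71 (SD, n = 3 experiments).

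Rod-like barcodes had less SMOC2: 0.256 and 13.6 CPM in control and over the graft of LG5, 1.83 and 12.5 CPM in RC726, and 1.86 and 19.3 CPM in RC724. The UMIs were 2, 25 and 16 in control and 93, 201 and 255 over the graft. The groups did not overlap, and the mean log2(CPM + 1) difference was 2.88 ± 0.64 (SD, n = 3 experiments). Over the graft the cone-like level was 11.2 times the rod-like level in LG5, 2.66 times in RC726 and 4.29 times in RC724, the opposite order to AQP3. Cone-like barcodes were 5.51%, 4.24% and 2.52% of the kept barcodes over the graft and held 54.4%, 25.7% and 24.8% of the SMOC2 UMIs. For AQP3, rod-like barcodes held 51.6%, 82.3% and 69.3% of the UMIs and cone-like barcodes 12.8%, 6.62% and 12.4%.

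**Figure D1:**
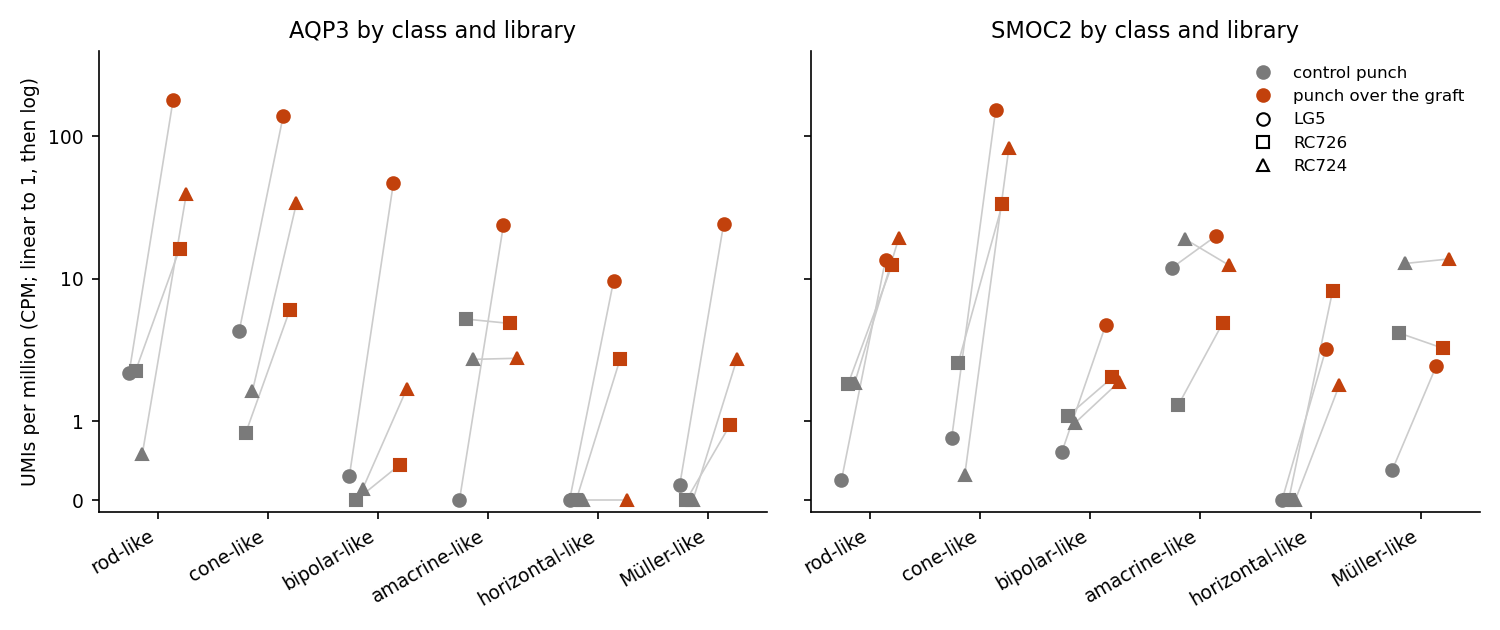
CPM of AQP3 (left) and SMOC2 (right) in 6 marker-named classes, on an axis that is linear to 1 and logarithmic above. Each point is 1 library, grey for control and orange for over the graft, with grey lines joining the punches of 1 experiment. AQP3 is highest in rod-like and cone-like barcodes over the graft (180.5 and 139.9 CPM in LG5), and SMOC2 in cone-like barcodes (153 CPM in LG5).

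The share of positive barcodes showed how sparse both transcripts were. AQP3 was found in 0.270% (0.169 to 0.432) of rod-like barcodes in the LG5 control and in 15.7% (14.8 to 16.7) over the graft. In RC726 the shares were 0.460% (0.319 to 0.664) and 3.73% (3.28 to 4.25), and in RC724 0.122% (0.0519 to 0.284) and 8.66% (7.91 to 9.46). Most positive rod-like barcodes over the graft, 78.3% in LG5, 86.4% in RC726 and 84.0% in RC724, held a single AQP3 UMI. Among cone-like barcodes AQP3 was found in 18.3% (16.2 to 20.5), 4.44% (2.90 to 6.76) and 23.7% (18.6 to 29.8) over the graft of LG5, RC726 and RC724, against 1.01%, 0.532% and 1.63% in control.

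SMOC2 was found in a larger share of cone-like than of rod-like barcodes in each library over the graft. It was present in 21.9% (19.7 to 24.3) of cone-like barcodes over the graft of LG5, 11.6% (8.92 to 14.8) of RC726 and 50.2% (43.7 to 56.8) of RC724. The control shares were 0.202%, 0.532% and 0.326%. Depth differed between these cones, with medians of 1432 UMIs in LG5, 6035 in RC726 and 13046 in RC724. With each barcode thinned to 1000 UMIs and shallower barcodes left out, the order changed: 15.9% in LG5, 1.91% in RC726 and 5.61% in RC724. The thinned shares of AQP3-positive rod-like barcodes were 16.7%, 1.18% and 3.48% over the graft and 0.198%, 0.172% and 0.117% in control. In rod-like barcodes SMOC2 was found in 1.45%, 2.89% and 4.09% over the graft and in 0.0318%, 0.378% and 0.365% in control.

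**Figure D2:**
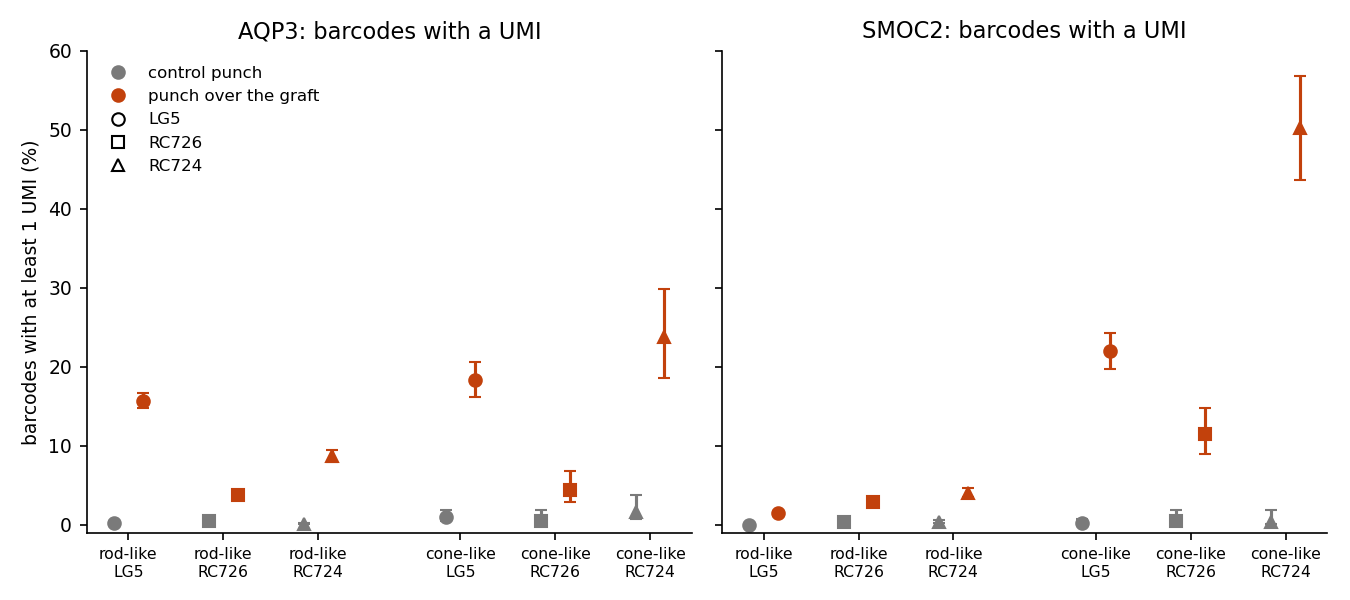
Percent of rod-like and cone-like barcodes with at least 1 UMI of AQP3 (left) or SMOC2 (right), by experiment, in control (grey) and over the graft (orange). Bars are 95% Wilson intervals, which cover counting error only. SMOC2 spans 11.6% to 50.2% of cone-like barcodes over the graft and stays under 1% in control.

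Outside the photoreceptors the 2 genes parted. AQP3 in Müller-like barcodes was 0.189 CPM in the LG5 control and 24.4 CPM over the graft. It was at 0 in the other two controls, with 0.957 CPM over the graft of RC726 and 2.73 CPM over the graft of RC724. Against a floor of 3 UMIs per library, this is at least 2.68-fold higher in RC726 and at least 18.8-fold higher in RC724. In amacrine-like barcodes AQP3 was 0 and 23.9 CPM in control and over the graft of LG5. It was 5.21 and 4.86 CPM in RC726, and 2.72 and 2.77 CPM in RC724. Bipolar-like barcodes, relay neurons, had 46.8, 0.451 and 1.68 CPM of AQP3 over the graft. Of these barcodes, 3.45%, 0.301% and 1.41% were positive. Their median depths were 737, 6011 and 8177 UMIs, against 806, 1914 and 2098 UMIs in rod-like barcodes. SMOC2 was found in 0.312%, 1.05% and 1.41% of the same bipolar-like barcodes. No endothelial-like barcode held an AQP3 UMI in any of the 6 libraries. The 39, 27 and 42 such barcodes over the graft allow shares of up to 7.69%, 11.1% and 7.14% of barcodes with a UMI, which is no limit on the cells that express the gene and lies above several of the shares given for the other classes.

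Free RNA released from broken cells gives UMIs in barcodes of other classes, so the counts were set beside an estimate of it. The estimate took the share of rod marker UMIs in a class, divided by that share in the whole punch, as the part of the class's UMIs that was free RNA with the punch's own composition. For AQP3 over the graft it gave 324, 14.4 and 55.5 UMIs in Müller-like barcodes of LG5, RC726 and RC724, where 352, 15 and 68 were counted. In bipolar-like barcodes it gave 251, 4.36 and 13.5 UMIs, and 197, 2 and 8 were counted. AQP3 counts in the Müller-like and bipolar-like classes were near or below the estimate. The punch's composition includes the class's own UMIs, so the estimate is not independent of the count. The source of these UMIs was not tested. In amacrine-like barcodes the estimate gave 81.7, 0.602 and 2.60 UMIs, and 67, 5 and 4 were counted. In cone-like barcodes it gave 156, 4.64 and 7.71 UMIs, and 306, 21 and 93 were counted, all above it.

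For SMOC2 the estimate for cone-like barcodes was 40.3, 6.60 and 9.39 UMIs, against 335, 116 and 227 counted. For Müller-like barcodes it was 83.7, 20.5 and 67.6 UMIs, against 35, 51 and 343 counted. SMOC2 thus exceeded the estimate in cone-like barcodes of all 3 libraries and in Müller-like barcodes of RC726 and RC724. The estimate is coarse in LG5, where it came to 123% of the UMIs of cone-like and 103% of those of bipolar-like barcodes. It also treats rods as its source and so cannot be made for rod-like barcodes.

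**Figure D3:**
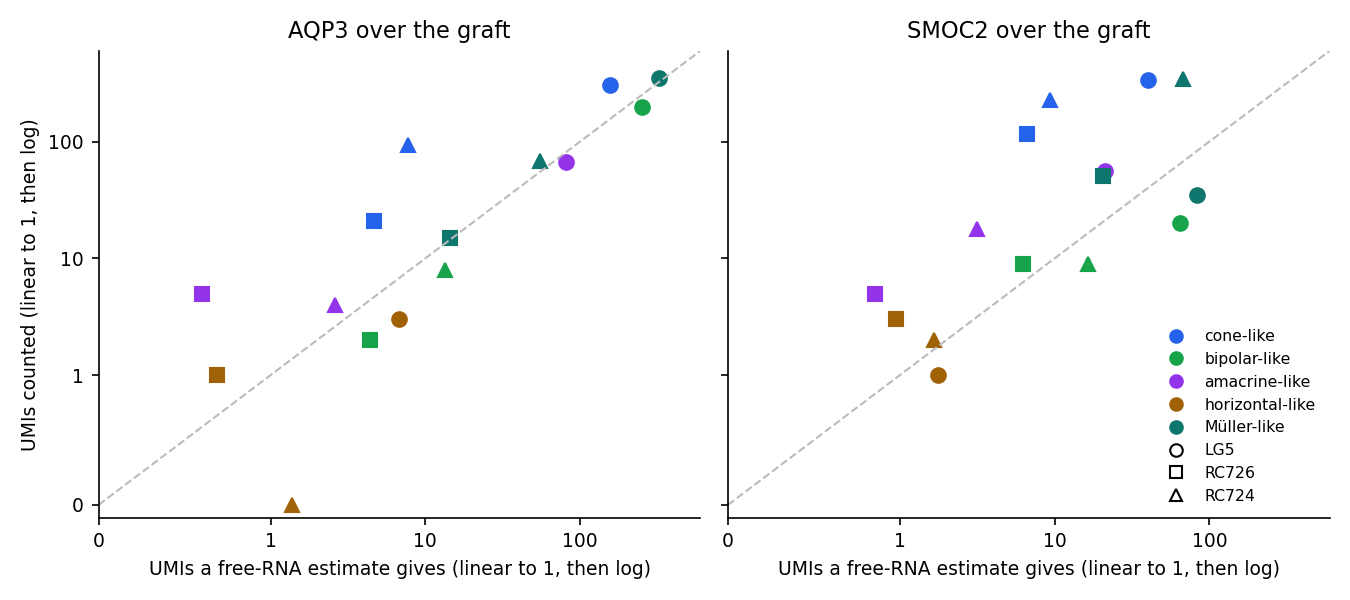
UMIs of AQP3 (left) and SMOC2 (right) counted over the graft in each class (vertical) against the UMIs a free-RNA estimate gives (horizontal), on axes linear to 1 and logarithmic above, with a dashed line of equality. Colours are classes and symbols experiments. Cone-like barcodes lie above the line for both genes (93 counted against 7.71 for AQP3 in RC724), and AQP3 in Müller-like barcodes lies near it.

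SMOC2 had levels in Müller-like and amacrine-like barcodes of the control punches already, and these showed no common direction over the graft. In Müller-like barcodes the level was 0.377 CPM in control and 2.43 CPM over the graft of LG5, 4.17 and 3.26 CPM in RC726, and 12.8 and 13.8 CPM in RC724. A single barcode held 41 of the 343 UMIs over the graft of RC724, and without it the level was 12.2 CPM, below the control. The experiments differed from each other more than the punches did, and the mean log2(CPM + 1) difference was 0.38 ± 0.83 (SD, n = 3 experiments). In amacrine-like barcodes, inhibitory interneurons, it was 11.9 and 19.98 CPM in LG5, 1.30 and 4.86 CPM in RC726, and 19.0 and 12.4 CPM in RC724. A single barcode held 13 of the 21 SMOC2 UMIs of the RC724 control amacrine-like class. In bipolar-like barcodes the level was 0.605 and 4.76 CPM in LG5, 1.09 and 2.03 CPM in RC726, and 0.976 and 1.89 CPM in RC724.

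The control libraries alone show where the genes are read without a graft above, and this difference was open to a test. Across 15928 genes, edgeR's quasi-likelihood test compared each class with the mean of the other 5 classes, with Benjamini-Hochberg adjustment. SMOC2 was higher in amacrine-like barcodes (log2 difference 3.81, SE 1.02, adjusted p = 0.00993) and in Müller-like barcodes (3.02, SE 0.89, adjusted p = 0.0108). AQP3 was higher in rod-like (2.51, SE 0.89, adjusted p = 0.0284) and cone-like barcodes (2.96, SE 0.98, adjusted p = 0.0297). Its mean control level was 2.64 CPM in amacrine-like barcodes, on 7 UMIs, above 2.26 CPM in cone-like and 1.67 CPM in rod-like barcodes. Of all genes, 22.5% were called higher in amacrine-like, 33.9% in Müller-like, 31.4% in rod-like and 20.5% in cone-like barcodes, so such a call is common. The calls for bipolar-like and horizontal-like barcodes, where 22.6% and 16.3% of genes were called higher, did not pass for either gene, nor, by edgeR, did AQP3 in amacrine-like (adjusted p = 0.117) or Müller-like barcodes or SMOC2 in photoreceptors. DESeq2 called AQP3 higher in amacrine-like (2.61, adjusted p = 0.0361) and lower in Müller-like barcodes (-3.68, adjusted p = 0.0147).

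These control calls rest on few UMIs: 53 for AQP3 in rod-like and 19 in cone-like barcodes, and 303 for SMOC2 in Müller-like and 39 in amacrine-like barcodes. The AQP3 call in cone-like barcodes was lost without any 1 of the 3 experiments (adjusted p = 0.0638 to 0.145, edgeR), and that in rod-like barcodes without RC726 (0.196) or RC724 (0.0799). The rod-like call was also lost with a stricter barcode filter (0.0606), the per-barcode gate (0.0571), free RNA subtracted from the other classes (0.0899), DESeq2 (0.102) and no replicate block (0.0682). The cone-like call was lost with DESeq2 (0.0521) and no replicate block (0.0608). Without RC724, whose control held 264 of the 303 Müller-like SMOC2 UMIs, both SMOC2 calls were lost (adjusted p = 0.517 in Müller-like, 0.0898 in amacrine-like barcodes, edgeR).

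Rod-like barcodes fell into several clusters, and AQP3 was present over the graft in each large one. A cluster led by VMO1, THY1, ISG15, ZMAT1 and HERC6 held 811 barcodes over the graft against 156 in control in RC726, and 949 against 36 in RC724. There AQP3 was 40.9 CPM over the graft of RC726 and 56.4 CPM over the graft of RC724, against 20.5 and 0 CPM in control. That cluster held 13 of the 31 AQP3 UMIs of RC726 control rod-like barcodes, its 156 barcodes being a small part of 6085. The other rod-like clusters over the graft had 7.52 to 11.4 CPM in RC726 and 29.5 to 38.8 CPM in RC724. In LG5 the rod-like clusters had 97.2 to 225 CPM.

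Both genes in 1 barcode were counted to see whether the same photoreceptors carried them. Over the graft, 28, 10 and 28 rod-like barcodes of LG5, RC726 and RC724 had a UMI of both, where the product of the separate shares gives 13.8, 6.38 and 17.9. In cone-like barcodes 52, 9 and 37 had both, against 49.6, 2.31 and 26.1. The counts were at or above the product in each library, but barcodes with both genes were also deeper. Thinned to 1000 UMIs, rod-like barcodes with both numbered 6, 0 and 2 against 5.17, 0.717 and 2.64. Cone-like barcodes with both numbered 24, 0 and 1 against 21.7, 0.0572 and 0.617. Most of these products are too small to show whether an excess remained at that depth.

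Cones of the dog carry a long-wavelength or a short-wavelength opsin, OPN1LW or OPN1SW, and a split by the opsin with at least 2 UMIs was made after the values were seen. Over the graft of RC724, AQP3 was found in 45 of 149 OPN1LW-led barcodes (30.2%) and in 1 of 29 OPN1SW-led barcodes (3.45%), and SMOC2 in 91 of 149 (61.1%) and 13 of 29 (44.8%). In RC726 the counts were 15 of 237 and 2 of 20 for AQP3, and 38 of 237 and 6 of 20 for SMOC2. The SMOC2 level in OPN1LW-led and OPN1SW-led barcodes was 85.0 and 84.8 CPM in RC724. It was 30.5 and 52.4 CPM in RC726, and 145 and 0 CPM in LG5. Median depths were 15495 and 11777 UMIs in RC724, 12337 and 8639.5 in RC726, and 1755 and 1483 in LG5. In LG5, AQP3 was found in 10 of 34 OPN1LW-led (29.4%) and 1 of 14 OPN1SW-led barcodes (7.14%), and SMOC2 in 9 of 34 (26.5%) and 0 of 14, while 1187 of the 1235 cone-like barcodes had neither opsin at 2 UMIs. The AQP3 share was thus lower in OPN1SW-led barcodes of LG5 and RC724 and not of RC726, with 14 to 29 such barcodes a library and no test.

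Few other aquaporins could be tested over the graft, and none of them was called. Over all genes tested, 22.8% were called changed over the graft in rod-like barcodes (11.8% higher and 11% lower), 3.28% in cone-like (2.2% higher and 1.07% lower) and 0.147% in Müller-like barcodes (0.104% higher and 0.043% lower), by edgeR's quasi-likelihood test with experiment as a block. Of 12 aquaporins, 3 could be tested in rod-like, 2 in cone-like and 4 in Müller-like barcodes beside AQP3, and none was called. With so few tested, the absence of a call is near the shares over all genes and so is no result about the aquaporins. AQP4 in Müller-like barcodes was 352 CPM in control and 234 CPM over the graft of LG5, 422 and 304 CPM in RC726, and 338 and 341 CPM in RC724. AQP5 in the same barcodes was 174 and 280, 221 and 243, and 176 and 199 CPM, higher over the graft in each experiment but not called (log2 0.33, SE 0.18, adjusted p = 0.503, edgeR). In bipolar-like barcodes AQP5 was 2.12 mean CPM in control and 5.10 over the graft, again not called (log2 1.11, SE 0.34, adjusted p = 0.192, edgeR). AQP11, an aquaporin of intracellular membranes, was 4.9 and 4.3, 13.1 and 11.4, and 21.3 and 17.7 CPM in rod-like barcodes. The levels of AQP4 and AQP5 in Müller-like and of AQP11 in rod-like barcodes overlapped between the punches.

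In the SPARC family, SMOC1, the closest relative of SMOC2, was called higher in both photoreceptor classes. In cone-like barcodes SMOC1 was 3.9 CPM in control and 43.4 CPM over the graft of LG5, 25.9 and 34.5 CPM in RC726, and 15.9 and 51.4 CPM in RC724. It rose by 1.48 on the log2 scale (SE 0.36, adjusted p = 0.0477, edgeR), and it was the 1 called member of 8 tested in cone-like barcodes, with a family median of 0.00. The call was lost without LG5 (adjusted p = 0.0635), without RC724 (0.576) and with DESeq2 (0.362). In rod-like barcodes SMOC1 rose from 0.480 to 2.55 mean CPM (log2 2.20, SE 0.44, adjusted p = 0.00426, edgeR), and this call was lost without RC724 (0.0705). SPOCK1 and SPARCL1, a proteoglycan and a matricellular protein of the family, fell in rod-like barcodes by 0.40 and 0.42 on the log2 scale, and the other 6 of the 9 tested there were not called. Müller-like barcodes held far more of both, SPARCL1 at 1081 mean CPM in control and 684 over the graft against 53.6 and 36.4 in rod-like barcodes, and SPOCK1 at 1189 and 1179 against 45.8 and 34.7. The part of Müller RNA in the rod-like values was not tested.

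**Figure D4:**
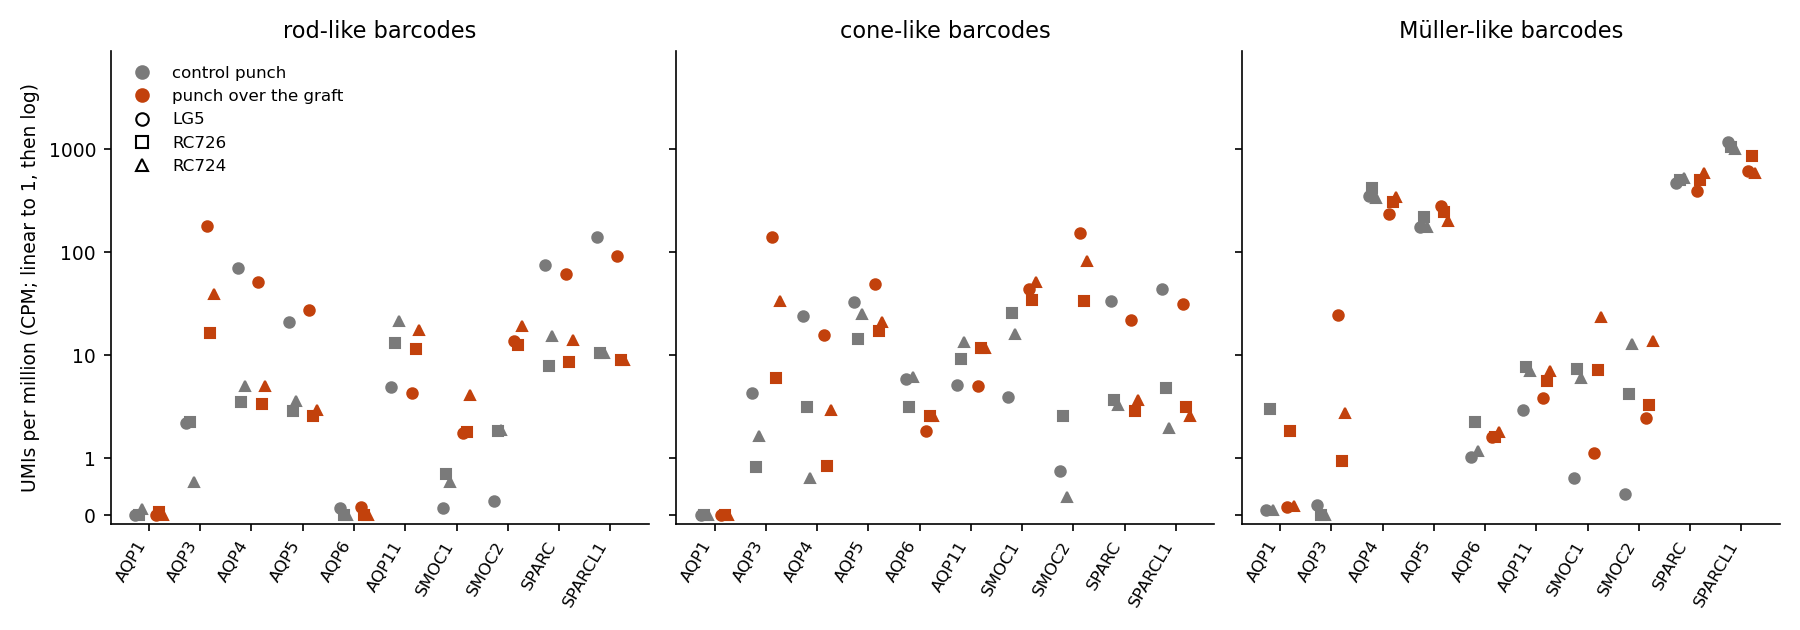
CPM of aquaporins and SPARC family genes in rod-like, cone-like and Müller-like barcodes, on an axis linear to 1 and logarithmic above; each point is 1 library, grey for control and orange for over the graft. AQP3 and SMOC2 separate the punches in rod-like and cone-like barcodes, while AQP4 and AQP5 overlap in Müller-like barcodes (AQP4 234 to 422 CPM).

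Genes that handle what AQP3 carries were read against the 22.8% of all genes called in rod-like barcodes. Of 16 glycerol and triglyceride genes, 11 were tested in rod-like barcodes, where 3 rose and 2 fell (median log2 0.05, against 0.00 over all genes). LPIN2, a phosphatidate phosphatase of glycerolipid synthesis, rose from 140 to 399 mean CPM (log2 1.47, SE 0.14, adjusted p = 3.92e-05, edgeR), while its relative LPIN1 fell by 0.92 and the lipase PNPLA2 by 0.61. In cone-like barcodes LPIN2 was the 1 called gene of 11, at 203 and 734 mean CPM (adjusted p = 0.00121, edgeR), and without RC724 it was not called (0.154). Of 16 peroxide-handling genes tested in rod-like barcodes 8 rose and 1 fell (median 0.36). They included the peroxiredoxin PRDX1, which rose from 209 to 421 mean CPM, and the glutathione peroxidase GPX4, from 382 to 777 mean CPM. GPX3 fell by 0.60, from 88.9 to 59.3 mean CPM. In Müller-like barcodes GPX3 was 1319 mean CPM in control and 926 over the graft, and the part of Müller RNA in its rod-like values was not tested. PRDX1 was the 1 called of 15 in cone-like barcodes, and not without RC724 (adjusted p = 0.432, edgeR).

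Of 11 osmotic response genes tested in rod-like barcodes, none rose and 2 fell, among them the taurine transporter SLC6A6, from 521 to 168 mean CPM (log2 -1.70, SE 0.15, adjusted p = 2.65e-05, edgeR). SLC6A6 also fell in cone-like barcodes, by 1.24, a call lost without RC724 (adjusted p = 0.386, edgeR). SMOC proteins are known to bear on BMP and TGF-beta signals and on cell adhesion. Of 21 BMP and TGF-beta signalling genes in rod-like barcodes 3 rose and 1 fell (median 0.10), among them the inhibitor SMAD7, which rose by 1.15, and the pseudoreceptor BAMBI, which fell by 0.66. In cone-like barcodes the BMP receptor ACVR1 and the activin subunit INHBB rose and the other 18 of 20 were not called. Both calls were lost without RC724 (adjusted p = 0.551 and 0.558, edgeR) and with DESeq2 (0.0792 and 0.268), and that of INHBB also without LG5 (0.0964). Of 11 integrin and focal adhesion genes in rod-like barcodes, ITGAV rose by 0.34 and ITGB5 fell by 0.56. The shares called in the osmotic, BMP and TGF-beta, and integrin lists were near or below the 22.8% called over all genes, and so are no result about these lists. Of 5 wound matrix genes tested there, the protease inhibitor TIMP1 rose by 2.61, from 36.8 to 645 CPM in LG5, 2.78 to 11.5 CPM in RC726 and 12.3 to 23.4 CPM in RC724. TIMP1 was higher in Müller-like barcodes of each library, at 290 and 6369, 138 and 531, and 276 and 693 CPM, and the part of Müller RNA in the rod-like values was not tested. Without the rod-like cluster led by VMO1, a setting chosen after seeing the data, the calls for SPOCK1 (adjusted p = 0.133), SPARCL1 (0.197), SMAD7 (0.0830) and ITGAV (0.0854) were lost.

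The type I interferon list had the highest median change of the gene lists in both classes. In rod-like barcodes 20 of 23 tested type I interferon response genes rose (median log2 4.17), among them MX1, an antiviral GTPase, by 6.09. IFI6 fell there, from 64.1 to 28.1 mean CPM. In Müller-like barcodes IFI6 was 698 mean CPM in control and 263 over the graft, and the part of Müller RNA in its rod-like values was not tested. In cone-like barcodes 10 of 14 rose (median 1.67), among them the ubiquitin-like modifier ISG15 by 5.68. ISG15 there was 7.81 CPM in control and 601.5 CPM over the graft of LG5. It was 1.42 and 8.92 CPM in RC726, and 0 and 6.56 CPM in RC724. Rod-like barcodes over the graft held 1069, 105 and 128 CPM of ISG15, and the part of rod RNA in the cone-like values was not tested. Of 16 IL6 and STAT3 signalling genes 10 rose in rod-like barcodes (median 0.85), and 2 of 10 in cone-like barcodes, the receptor subunit IL6ST and STAT3 itself, both lost without RC724 (adjusted p = 0.434 and 0.257, edgeR). The 11 microglia markers took 0.0326% of UMIs in the LG5 control and 0.0912% over its graft, 0.00632% and 0.00784% in RC726, and 0.00508% and 0.0109% in RC724. Their part in the levels of AQP3 and SMOC2 was not tested. The cone arrestin ARR3 fell from 3936 to 1703 mean CPM in cone-like barcodes (log2 -1.49, SE 0.28, adjusted p = 0.0140, edgeR). Without RC724 no gene was called lower in cone-like barcodes, so this call was lost too.

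The genes whose pattern was most like the members' were ranked by Pearson's r of log2(CPM + 1) over 36 sums, 6 classes in 6 libraries, among 12473 genes. The sums share libraries and depth, so r is a description. They also hold the difference between the punches by which both genes were chosen. A gene that rises over the graft can rank high for that alone. Nearest to AQP3 were SEC23B, VMO1 and FABP5, each with r = 0.87, and ADAR and TENT5C with r = 0.85. SEC23B encodes a coat protein of vesicles leaving the endoplasmic reticulum, and FABP5 a fatty acid binding protein. Nearest to SMOC2 was LTBP1, a binding protein of latent TGF-beta, with r = 0.82, then TPST2 (0.68), MYOM1 (0.65), TAPBP (0.64) and AQP3 (0.64). From the other side, SMOC2 ranked 148 for likeness to AQP3.

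LTBP1 in cone-like barcodes was 0.391 and 27.4 CPM in control and over the graft of LG5, 0 and 11.8 CPM in RC726, and 1.30 and 39.0 CPM in RC724. In rod-like barcodes it was 0.256 and 10.4, 1.46 and 24.8, and 1.05 and 39.7 CPM. Unlike SMOC2, it was not higher in cone-like than in rod-like barcodes in RC726 or RC724. VMO1 in rod-like barcodes was 21.5 and 4141 CPM in LG5, 40.5 and 522 CPM in RC726, and 6.98 and 877 CPM in RC724, the order of experiments seen for AQP3.

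Within the cone-like barcodes over the graft, those with a SMOC2 UMI were compared with those without. This difference lies inside each library and was not used to choose the gene. Positive barcodes numbered 271, 52 and 110 and negative ones 964, 398 and 109 in LG5, RC726 and RC724. Of 10006 genes tested by edgeR with library as a block, 0.59% (59) were higher and 0.78% (78) lower in positive barcodes. The p-values of such comparisons rest mostly on a variance shared over genes and little on a gene's spread between libraries. LTBP1 was higher here, with 19.4 CPM in negative and 55.7 CPM in positive barcodes of LG5. It was 1.07 and 55.9 CPM in RC726, and 32.4 and 43.0 CPM in RC724 (log2 1.78, SE 0.31, adjusted p = 4.16e-05, edgeR). ATOH7, a transcription factor best known for ganglion cell genesis, was 47.0 and 80.5, 115 and 448, and 345 and 704 CPM (log2 1.30, SE 0.13, adjusted p = 1.16e-12, edgeR).

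Other genes higher in SMOC2-positive cone-like barcodes were PLD5, PTX3, RAP2A and ACOX2, with log2 differences of 1.92, 1.36, 1.15 and 1.10. PTX3 is a secreted pentraxin of innate immunity and ACOX2 a peroxisomal oxidase. SMOC1 was higher by 0.74 (SE 0.20, adjusted p = 0.0281, edgeR), the 1 called of 7 tested genes of its family. Lower were the cyclase activator GUCA1A by 1.21, OPN1SW by 1.11 and ARR3 by 0.95, with PLA2G5, PCDH9 and RHBDL3 lower by 1.24 to 1.41. Of the 10 cone markers, 1 was higher and 3 were lower (median log2 -0.23). ARR3 was 865 CPM in negative and 229 CPM in positive barcodes of LG5, 3437 and 1845 CPM in RC726, and 1372 and 1195 CPM in RC724. The gap was widest in LG5 and narrow in RC724. Of 10 rod markers 5 were lower, among them SAG, CNGA1, GNGT1 and ROM1, and none higher.

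Depth differed between these barcodes, with medians of 1431 UMIs in positive and 1433 UMIs in negative barcodes of LG5. In RC726 they were 13046 and 5085 UMIs and for RC724 15884 and 8650 UMIs. ATOH7 was higher and ARR3 lower in positive barcodes of all 3 libraries, and the part of depth in these differences was not tested. Too few positive cone-like barcodes remained for a test after thinning. Without RC726 LTBP1 was not called (adjusted p = 0.191), nor SMOC1 (0.620).

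AQP3-positive cone-like barcodes, 226, 20 and 52 in number, showed fewer differences: 0.133% (13) of 9772 genes were higher and 0.164% (16) lower. Higher were ZMAT1 by 0.91 (SE 0.13, adjusted p = 5.77e-06, edgeR), TENT5C by 0.88, IL1RAPL1 by 0.83, VMO1 by 0.77 and ROR1 by 0.70. TENT5C encodes a poly(A) polymerase. Lower were ARR3 by 0.89, GUCA1A by 0.86 and the cAMP phosphodiesterase PDE4B by 0.84. ARR3 and GUCA1A were thus lower in cone-like barcodes positive for either gene. Without LG5, which held 226 of the 298 positive barcodes, no gene was called by edgeR, and 501 genes had an unadjusted p under 0.05. SMOC2 itself was 108 CPM in AQP3-positive and 88.4 CPM in AQP3-negative barcodes, a log2 difference of 0.30 that did not pass the test (SE 0.19, adjusted p = 0.803, edgeR).

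**Figure D5:**
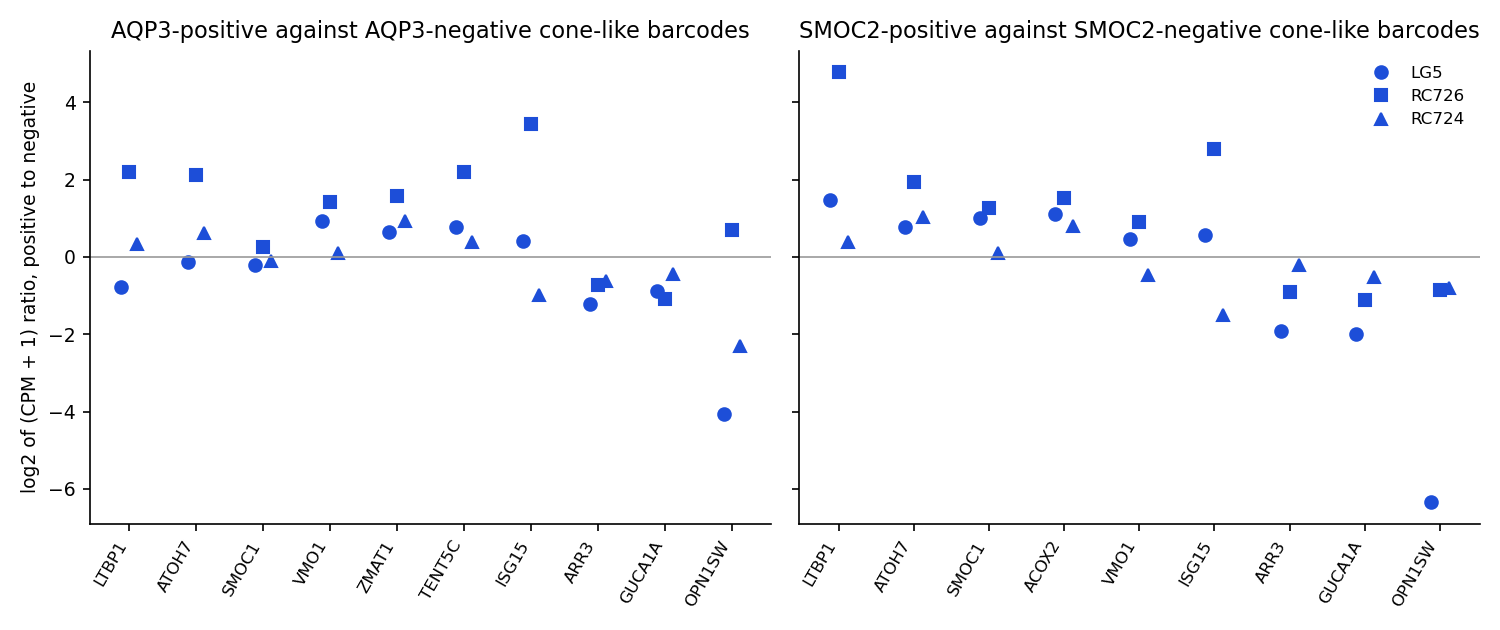
Log2 ratio of CPM + 1 between positive and negative cone-like barcodes over the graft, for AQP3 (left) and SMOC2 (right); each point is 1 library and the line marks no difference. GUCA1A and ARR3 lie below the line in all 3 libraries for both genes, and ATOH7 lies above it in all 3 for SMOC2.

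AQP3-positive rod-like barcodes, 955, 221 and 438 in number, had 0.869% (105) of 12079 genes higher and 2.49% (301) lower. Of 23 interferon genes tested 11 were higher and IFI6 was lower, with a median log2 difference of 0.43 against -0.05 over all genes. ISG15 was higher by 0.67, MX1 by 0.66 and OAS3, an enzyme of viral RNA sensing, by 0.80. Positive barcodes were deeper, with a median of 1159 UMIs against 774.5 in LG5. The medians were 4559 against 1832 UMIs in RC726, and 3292 against 1974 UMIs in RC724. After thinning to 1000 UMIs, 0% of 9287 genes were higher and 0.312% (29) lower by edgeR, and 545 genes had an unadjusted p under 0.05. ISG15 was then 0.39 higher (SE 0.18, adjusted p = 0.730, edgeR) and VMO1 0.50 higher (SE 0.14, adjusted p = 0.0865). Among cone-like barcodes positive for AQP3, none of 16 interferon genes was called, and 15 of the 16 values were positive (median 0.52). The libraries differed in direction. On the log2(CPM + 1) scale ISG15 differed by 0.41 in LG5, 3.44 in RC726 and -0.99 in RC724, and MX1 by 0.75, 3.31 and -1.64. RC726 had 20 positive barcodes.

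SMOC2-positive rod-like barcodes, 88, 171 and 207 in number, had 0.362% (44) of 12162 genes higher and 0.896% (109) lower. The higher ones included the intermediate filament gene DES by 1.43, the neurotrophin NTF3 by 1.40, the NF-kB cofactor BCL3 by 1.31 and LTBP1 by 1.19. These barcodes were deeper too, and after thinning 0% of 9312 genes were higher and 0.0859% (8) lower, with 787 at an unadjusted p under 0.05. LTBP1 then differed by -0.075. DESeq2 called none before thinning, with 182 at an unadjusted p under 0.05.

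In Müller-like barcodes SMOC2-positive ones numbered 33, 47 and 209, and 0.499% (76) of 15245 genes were higher and 0.131% (20) lower. Among the higher were the neuronal SNAP25 by 1.12 and the photoreceptor gene MAK by 1.06. Among the lower were the antiviral RSAD2 by 2.23 and the protease inhibitor PI3 by 1.24. None of 11 Müller markers tested was called, and all 11 values were negative (median -0.32), while all 10 rod markers were positive (median 0.57), NRL alone being called. Positive Müller-like barcodes were deeper in each library, by medians of 5115 against 2832.5, 16634 against 8308 and 26702 against 19838 UMIs, and the part of rod RNA in these barcodes was not tested.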

How the data were processed

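Single cells of 6 neuroretinal punches were captured with 10x Genomics 3' v3.1 chemistry, per the labels' protocols. The deposited matrices hold the authors' raw UMI counts per gene and barcode, written by Cell Ranger 6.0.2 (both LG5 libraries), 7.0.0 (RC726 control) and 7.1.0 (the other 3), per the file headers. The genome build, annotation, use of intronic reads and handling of human transcripts were not given in the sources used here. The software version was the same in both punches of LG5 and RC724 and differed in RC726.

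Kept were barcodes of 300 genes or more with no more than 20% mitochondrial UMIs (13 genes), and the 6% with the highest Scrublet score in each library were removed, since its own threshold marked at most 0.0351%. Leiden clustering (scanpy 1.11.5, 30 principal components, 20 neighbours, resolution 1.5) used 2402 genes, leaving out both members and 24 genes that differed between punches. Clusters were named from marker lists, with limits set after seeing the data. UMIs were summed per library and class, and sums of 6 classes were tested with edgeR 4.0.16 (filterByExpr, TMM, glmQLFTest, R 4.3.3), with Benjamini-Hochberg adjustment over all genes tested and a threshold of 0.05. Experiment was a block because the design text places both punches in 1 retina, and same-experiment libraries deviated together (r = 0.93 to 0.97 over 7014 genes in rod-like and 0.88 to 0.95 over 6896 genes in cone-like barcodes). CPM used all UMIs of the class, and log2 ratios a pseudocount of 1 CPM. The dogs behind the experiments are not named, so p-values refer to these samples only. edgeR blends a gene's own variance with a variance shared over genes, weighted by prior degrees of freedom. Their median was 9.36 in rod-like and 9.29 in cone-like sums over graft against control. For positive against negative cone-like barcodes it was 66.6 (AQP3) and 96.1 (SMOC2). In rod-like barcodes it was 324 for AQP3, and without limit for SMOC2 there and in Müller-like barcodes. The latter p-values rest mostly on the shared variance and little on a gene's spread between libraries.

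The members and the gene lists were chosen with earlier results of these data known. Named list genes passed the threshold in 1 direction in all 3 experiments, up to 4 per list and class by p, in the rod-like and cone-like classes. A few others were added after their values were seen: AQP4, AQP5 and AQP11, GPX3, IFI6, ARR3 and GUCA1A, and the rod markers, IFI6, SMOC1, SMOC2, ISG15, MX1, ARR3 and OPN1SW among positive and negative barcodes. The genes named among positive and negative barcodes were the 8 largest rises and falls at 20 CPM or more in 1 direction in all 3 libraries, given in part. The model was tested on simulated data made from these libraries. Of 100 genes changed by 1 on the log2 scale, it recovered 83% in rod-like and 74% in cone-like sums over graft against control, and 66% for SMOC2-positive cone-like barcodes. The simulated libraries had no difference between experiments, and genes of very low count were not among those changed. These shares may therefore overstate recovery in the real data. Of 34981 gene names, 33363 matched a RefSeq symbol. No sequence or coordinate is printed, since none was used here.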

Additional observations from a re-analysis of the deposited data

Results flagged for a closer look

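Both genes also gave UMIs in barcodes that the comparisons did not use. Barcodes of unnamed clusters held 266 AQP3 UMIs over the graft against 3 in control, and 151 SMOC2 UMIs against 21. SMOC2 in endothelial-like barcodes came to 40 UMIs over the graft, 29 of them in RC726, against 2 in control, and 12 of 108 barcodes over the graft were positive. Astrocyte-like barcodes, which were found in RC726 and RC724, held 5 SMOC2 UMIs over the graft and 0 in control.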

How the results depend on the processing

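With a pseudocount of 10 CPM the mean log2 ratios shrank to 2.43 for AQP3 in rod-like and 1.96 in cone-like barcodes, and to 1.15 and 2.96 for SMOC2. Thinning to 1000 UMIs brought the mean SMOC2-positive share over the graft from 27.9% to 7.79% of cone-like and from 2.81% to 1.46% of rod-like barcodes, and joint detection in rod-like barcodes from 1.72 to 0.639 times the product of shares. These ratios and shares stayed within 1 SD under the other alternatives, such as a per-barcode marker gate and, chosen after seeing the data, leaving out the cluster led by VMO1. Subtracting free RNA, also within 1 SD for the cone-like ratios, could not be done for rod-like barcodes and so was no check of theirs. Leaving out an experiment gave 3.54 to 5.26 for AQP3 in rod-like, 2.83 to 4.23 in cone-like, 4.63 to 6.21 for SMOC2 in cone-like and 2.54 to 3.18 in rod-like barcodes.

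Counts of called genes moved more. Without the replicate block, 0 genes were called by edgeR in each comparison over the graft. Those with an unadjusted p under 0.05 then numbered 596 in rod-like and 217 in cone-like barcodes for graft against control, and 8, 22, 27, 20 and 38 for AQP3-positive rod-like, AQP3-positive cone-like, SMOC2-positive rod-like, SMOC2-positive cone-like and SMOC2-positive Müller-like barcodes. The unblocked fit kept the direction of each gene named. In cone-like barcodes over graft against control (382), no filter on low counts gave 971 and leaving out an experiment gave 22 (without RC724) to 745 (without RC726); in rod-like barcodes (3412) the range was 1693 to 3207. DESeq2 called 49 genes for AQP3-positive rod-like (406), 4 for AQP3-positive cone-like (29), 0 for SMOC2-positive rod-like (153), 11 for SMOC2-positive cone-like (137) and 42 for SMOC2-positive Müller-like barcodes (96), where no filter gave 158. Leaving out an experiment gave 159 to 241, 0 (without LG5) to 43, 0 (without RC724) to 40, 78 to 203 and 39 to 139 in the same order. Thinning left 29 for AQP3-positive and 8 for SMOC2-positive rod-like barcodes. There it reversed DES (-0.21) and IFI35 (-0.028) for AQP3, and LTBP1 (-0.075), IFGGB1 (-0.16) and LOC119866894 (0.16) for SMOC2.

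In the control classes, AQP3 in rod-like barcodes missed the threshold with a stricter barcode filter (2.25, adjusted p = 0.0606), the per-barcode gate (2.11, 0.0571), free RNA subtracted (2.66, 0.0899), DESeq2 (1.74, 0.102) and no replicate block (2.60, 0.0682), and leaving out an experiment gave 2.09 to 2.96. AQP3 in cone-like barcodes missed it with DESeq2 (2.27, 0.0521) and no replicate block (3.01, 0.0608), with 2.69 to 3.43 leaving out an experiment. DESeq2 called AQP3 lower in Müller-like (-3.68, 0.0147) and higher in amacrine-like barcodes (2.61, 0.0361), where leaving out an experiment gave 1.70 to 4.15. Leaving out an experiment gave 1.47 to 3.68 for SMOC2 in Müller-like and 3.06 to 4.77 in amacrine-like barcodes. SMOC2 turned sign without a call in cone-like barcodes (0.31) with the gate (-0.58), DESeq2 (-0.57) and leaving out an experiment (-0.91 to 1.06), and in rod-like barcodes (0.22) with DESeq2 (-0.85) and leaving out an experiment (-0.035 to 0.58). The causes were not tested. With 1 to 31 control UMIs in a photoreceptor class of a library, depth limits every ratio here.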
